A study of Saccharomyces cerevisiae with 4 samples.

Results

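The cytosolic translation factor genes of the budding yeast Saccharomyces cerevisiae are described here by the RNA polymerase II found on them. The members are 37 genes chosen by name, which encode the initiation, elongation and release factors of the cytosolic ribosome, the poly(A)-binding protein and the ribosome-associated protein Stm1. A gene was measured through the array probes that the files place inside it, and 33 of the 37 members had at least 1 such probe, of 5493 genes with an inside probe in all. The other 4 members, TEF1, TEF2, EFT2 and TIF1, had none and were measured only through probes beside them.

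The measurement was chromatin immunoprecipitation read on a tiling microarray (ChIP-chip), with 4 arrays in all. On 2 arrays the precipitated protein was Rpb3, a subunit of the polymerase core, and on 2 arrays it was Rpb4, which joins Rpb7 in a stalk that can leave the core enzyme. Each came from its own S288c strain, in which the named subunit carried a TAP tag. All cultures grew in YPD, a rich glucose medium, at 25 °C until the optical density was near 0.8 and were fixed with 1% formaldehyde for 20 min. No treatment was compared, and no untagged strain was used here as background. The labels leave unsaid whether arrays of the same subunit stand for different cultures, and each p-value therefore rests on array-to-array spread that may be technical. Tagged subunit and strain cannot be told apart.

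Translation starts when the eIF2 complex brings the initiator tRNA to the small ribosomal subunit, eIF4 factors and eIF3 bring in the mRNA, and eIF5B joins the large subunit. The elongation factor eEF1A then delivers each aminoacyl-tRNA, eEF2 moves the ribosome along, and the release factors end the chain at a stop codon. In growing yeast the elongation factors are among the most abundant proteins, whereas eIF2B, which reloads eIF2 with GTP, is a scarce regulatory complex. Several of these proteins are encoded by a pair of nearly identical genes, and probes that would match both copies cannot tell them apart.

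All levels are log2 ratios of precipitated (IP) to whole-cell extract (WCE) DNA, averaged over the inside probes of a gene and set to 0 at the median probe of each array. Foreground exceeded background 72.9- to 126-fold at the median for IP and 151- to 168-fold for WCE. The number of arrays limits the precision. The second Rpb3 array stood apart. Over 5490 genes its median distance from the first Rpb3 array was 0.14, against 0.03 between the Rpb4 arrays and 0.10 between the first Rpb3 and the first Rpb4 array. Over the 33 members the Pearson correlation was 0.98 within the Rpb3 pair, 0.99 within the Rpb4 pair and 0.88 to 0.95 across pairs. These correlations are across genes, which are not independent replicates. Main counts are also given without that array.

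Translation factor genes carried more polymerase than the median probe almost throughout. With Rpb3, 29 of the 33 were above it and 0 below at an adjusted p under 0.05 (limma, Benjamini-Hochberg over 5490 genes), where 38.4% of all genes were above and 29.2% below. With Rpb4, 29 of 33 were above and 0 below, against 37.9% and 25.8% of all genes. The median level of the members was 0.77 with Rpb3 and 0.78 with Rpb4, and that of all genes was 0.03 and 0.05. With normexp background correction the members' medians were 1.21 and 1.19, and those of all genes 0.10 and 0.10. Without the second Rpb3 array, 29 members were above and 1, TIF4632, was below for Rpb3, and 31 were above for Rpb4.

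The levels ran from -0.15 to 3.48 with Rpb3 and from -0.09 to 2.58 with Rpb4. Elongation factor genes, grouped here with STM1, had a median of 1.68 with Rpb3 over 6 measured members. The eIF3 subunits had 0.80 over 6, and the eIF2B subunits 0.07 over 4. With Rpb4 the same medians were 1.51, 0.82 and 0.15. The plot of levels by array shows the members by role.

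**Figure D1:**
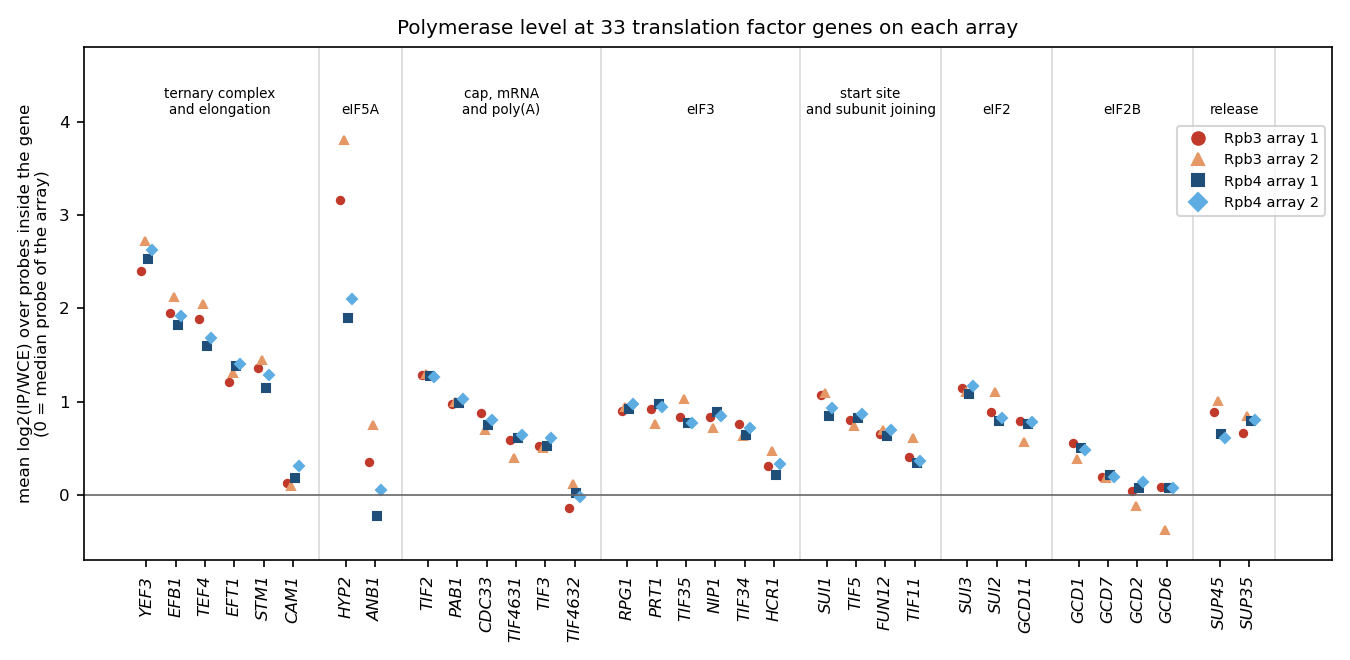
Mean log2(IP/WCE) over the inside probes of each of 33 translation factor genes, grouped by role, with 1 point for each of the 4 arrays and 0 at the median probe of the array. HYP2 stands highest on the Rpb3 arrays at 3.15 and 3.81. GCD2 and GCD6, for eIF2B, and TIF4632, for the second eIF4G, have the lowest means over the 4 arrays.

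Among the elongation factors, YEF3 encodes eEF3, the fungal ATPase that helps clear the ribosome's exit site. Its level was 2.40 and 2.72 on the Rpb3 arrays and 2.53 and 2.63 on the Rpb4 arrays. The groups overlapped, and the difference, Rpb4 minus Rpb3, was 0.02 ± 0.13 (SE, n = 2 arrays per group). Only 1 member, HYP2, stood higher with Rpb3, and none did with Rpb4, where YEF3 lay at percentile 99.5 of all genes.

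EFB1 encodes the exchange factor that recharges eEF1A with GTP. It stood at 1.95 and 2.12 on the Rpb3 arrays and at 1.82 and 1.92 on the Rpb4 arrays. Both Rpb4 arrays were below both Rpb3 arrays, but the difference of -0.17 ± 0.09 (SE) did not pass the test (limma adjusted p = 0.331). STM1, whose product binds ribosomes and protects them in starved cells, stood at 1.36 and 1.45 with Rpb3 and at 1.14 and 1.28 with Rpb4.

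TEF4 and CAM1 encode the same subunit of that exchange complex, eEF1B gamma, and differed widely. TEF4 stood at 1.88 and 2.05 on the Rpb3 arrays and at 1.59 and 1.68 on the Rpb4 arrays. CAM1 stood at 0.12 and 0.09 with Rpb3 and at 0.18 and 0.31 with Rpb4. TEF4 exceeded CAM1 on every array, and CAM1 was above the median probe with Rpb4 (limma adjusted p = 0.014) but did not pass with Rpb3 (adjusted p = 0.118).

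The gene pairs for eEF1A and eEF2 were seen mostly at their edges. TEF1 and TEF2 both encode eEF1A and had no inside probe. The probe 10 bp before the TEF1 start (chr16:700550-700609, positions as in the files, whose genome build is not given in the sources used here) read 2.69 and 3.38 with Rpb3 and 2.11 and 2.22 with Rpb4. The probe beyond its end, 1387 bp from the start, read 2.62, 2.89, 2.65 and 2.61 in the same order of arrays. At the upstream TEF1 probe both Rpb4 arrays were below both Rpb3 arrays, and at the downstream one the 4 arrays were alike.

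The probe 22 bp before TEF2 (chr2:477574-477633), in the promoter it shares with the transketolase gene TKL2, read 3.22 and 3.96 with Rpb3 and 2.75 and 2.81 with Rpb4. On the same arrays the probe 53 bp before TKL2 read -0.43, -0.87, -0.45 and -0.56, so the signal of this shared promoter lay on the TEF2 side. The TEF1 and TEF2 start probes differed between the subunits by -0.87 ± 0.25 and -0.81 ± 0.26 (SE), neither of which passed the test over all probes (limma adjusted p = 0.246 and 0.292).

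EFT1 and EFT2 encode eEF2. The probe 56 bp before EFT2 read 2.07 and 2.29 with Rpb3 and 1.54 and 1.56 with Rpb4. The probe 8 bp before EFT1 read 1.55 and 1.64 with Rpb3 and 1.25 and 1.18 with Rpb4. The order of the subunits turned at the single inside probe of EFT1, 2523 bp from its start. That probe read 1.21 and 1.30 with Rpb3 and 1.38 and 1.40 with Rpb4. EFT1 is 2529 bp long, so its gene level is a reading of the gene's end. Neither EFT1 difference passed the test (-0.38 and 0.14, limma adjusted p over probes 0.262 and 0.542).

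HYP2 and ANB1 encode eIF5A, the factor that carries the amino acid hypusine and helps ribosomes through difficult peptide bonds. HYP2 is the form used with oxygen and ANB1 the form used when oxygen is low. The single inside probe of HYP2 (chr5:85815-85866) read 3.15 and 3.81 on the Rpb3 arrays and 1.90 and 2.10 on the Rpb4 arrays. The groups did not overlap, and HYP2 had the largest difference of the 33 members at -1.48 ± 0.24 (SE), a 2.80-fold lower ratio with Rpb4, with an adjusted p of 0.062 (limma over 5490 genes), which did not pass. It passed under quantile normalization (-0.99), after normexp background correction (-1.15) and with a replicate block. Under the other alternatives that kept all 4 arrays it did not pass, for example with arrays scaled to one spread (-1.06, limma adjusted p = 0.087). The HYP2 difference was -1.81 without the first Rpb3 array and -1.16 without the second. It was -1.38 without the first Rpb4 array and -1.58 without the second.

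Both channels moved at HYP2. The IP signal of the gene, centred on its array median, was 2.29 and 2.95 with Rpb3 and 1.83 and 1.80 with Rpb4. The WCE signal was -0.82 and -0.85 with Rpb3 and -0.03 and -0.26 with Rpb4, so the extract DNA itself read lower in the Rpb3 strain. The WCE difference of 0.69 was larger in size than that of 99.3% of genes, and its part in the HYP2 result was not tested. The probe 55 bp before HYP2, shared with the divergent gene UTR5, read 3.56, 4.64, 2.23 and 2.21.

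ANB1 lay far lower, at 0.35 and 0.75 with Rpb3 and at -0.23 and 0.05 with Rpb4. It was above the median probe with Rpb3 (limma adjusted p = 0.018) and not with Rpb4 (adjusted p = 0.568), but the difference itself, -0.64 ± 0.17 (SE), did not pass (adjusted p = 0.154). It passed with a replicate block (limma adjusted p = 0.015) and under no other alternative that kept all 4 arrays. The ANB1 difference was -0.83 without the first Rpb3 array and -0.44 without the second. Its promoter probes 188 and 362 bp upstream were below the median probe on all 4 arrays, between -0.96 and -0.56.

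The probe 913 bp before ANB1 lies 40 bp before CYC1, the gene for cytochrome c, which is no member. It read 1.70 and 1.98 with Rpb3 and 0.49 and 0.36 with Rpb4 (chr10:525959-526018). Of 261 probes in or beside members, this was the only one that passed the test of the subunits' difference, at -1.42 ± 0.15 (SE; limma adjusted p = 0.041 over 41563 probes). Of all probes, 0.171% were higher and 0.736% lower with Rpb4. At an unadjusted p under 0.05 were 54 of the 261, or 20.7%, and 14.4% of all probes. Without the second Rpb3 array 90 of the 261 passed (34.5%), and without the first 188 did (72.0%), since the spread then came from the Rpb4 pair alone. In the same fits 29.4% and 69.6% of all probes passed.

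**Figure D2:**
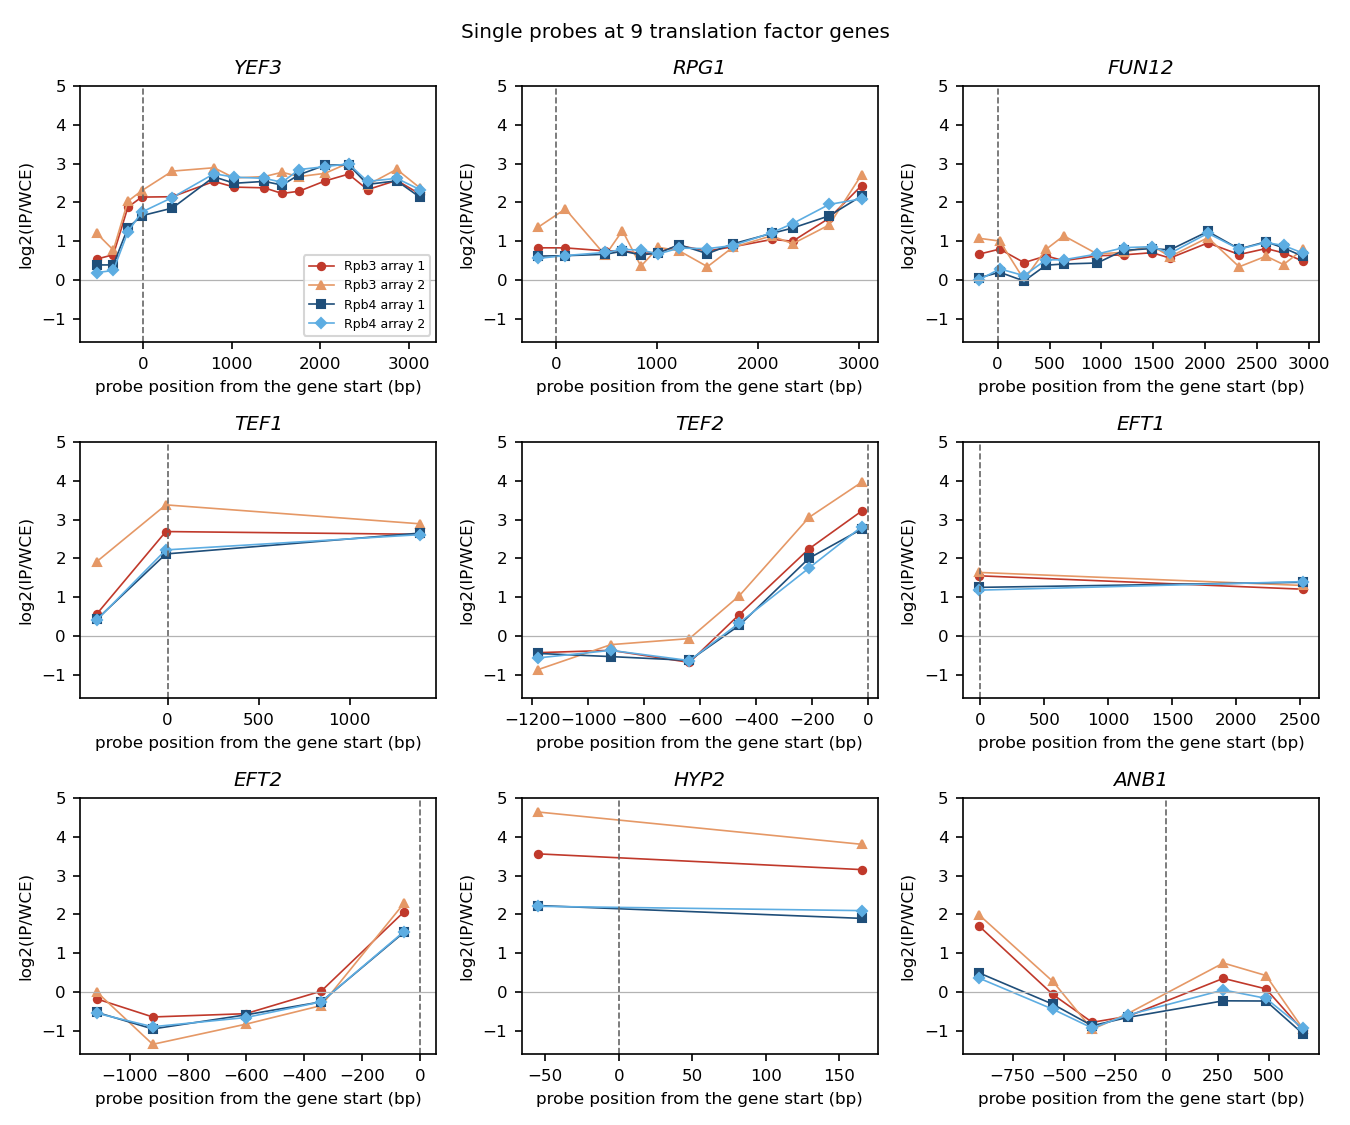
Log2(IP/WCE) of single probes on the 4 arrays against the probe's distance in bp from the start of 9 translation factor genes, with the start as a dashed line and the axis of distance scaled for each gene. The Rpb3 arrays lie above the Rpb4 arrays at the starts of YEF3, FUN12, TEF1, TEF2, EFT2 and HYP2. The arrays lie closer together further into YEF3 and FUN12. Both Rpb4 arrays are above both Rpb3 arrays at the YEF3 probes at 1761 and 2054 bp. The same holds for the FUN12 mean beyond 1500 bp.

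The genes for mRNA recruitment held middle levels. TIF1 and TIF2 both encode the helicase eIF4A. The TIF2 level was 1.28 and 1.30 with Rpb3 and 1.27 and 1.27 with Rpb4, which was the highest of this role. This even mean hid a turn along the gene, because its probe 7 bp from the start read 1.46 and 1.96 with Rpb3 and 1.18 and 1.18 with Rpb4.

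The TIF2 probe 1176 bp from the start read 1.10 and 0.63 with Rpb3 and 1.36 and 1.36 with Rpb4. At TIF1, the probe 86 bp before the start read 1.41 and 1.69 with Rpb3 and 1.00 and 0.92 with Rpb4, close to the TIF2 probe 167 bp upstream at 1.21, 1.49, 0.85 and 0.70. Neither TIF2 inside probe passed the test of the difference over all probes (limma adjusted p = 0.331 and 0.341).

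TIF4631 and TIF4632 encode the 2 forms of the scaffold eIF4G. TIF4631 stood at 0.59 and 0.39 with Rpb3 and at 0.61 and 0.65 with Rpb4. TIF4632 stood at -0.14 and 0.11 with Rpb3 and at 0.01 and -0.02 with Rpb4, and did not pass the test against the median probe in either group (limma adjusted p = 0.896 and 0.966). Only TIF4631 of the pair passed the test above the median probe. The remaining genes of this role were PAB1, for the poly(A)-binding protein, CDC33, for the cap-binding eIF4E, and TIF3, for eIF4B. Their mean levels ran from 0.51 to 0.99 with Rpb3 and from 0.57 to 1.01 with Rpb4.

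All 6 eIF3 genes were above the median probe in both groups. By the mean over the 4 arrays the highest was RPG1, for the large subunit eIF3a, at 0.90 and 0.94 with Rpb3 and at 0.92 and 0.97 with Rpb4. The lowest, by the same mean and in each group, was HCR1, for the loosely bound eIF3j, at 0.31 and 0.47 with Rpb3 and at 0.21 and 0.33 with Rpb4. PRT1, NIP1, TIF34 and TIF35, for subunits b, c, i and g, had means of 0.69 to 0.93 with Rpb3 and of 0.68 to 0.95 with Rpb4.

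All 4 start site and subunit joining genes were above the median probe in both groups as well. SUI1, for eIF1, which guards start codon choice, was highest at 1.07 and 1.09 with Rpb3 and at 0.84 and 0.93 with Rpb4, from 1 probe. Both Rpb4 arrays were lower, by 0.20 ± 0.06 (SE), which did not pass the test (limma adjusted p = 0.189). Under quantile normalization the SUI1 difference was 0.01, so its direction depends on the scaling. TIF11, for eIF1A, was lowest at 0.41 and 0.61 with Rpb3 and at 0.34 and 0.36 with Rpb4. TIF5 and FUN12, for eIF5 and eIF5B, lay between them on their 4-array means.

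The complex eIF2, which carries the initiator tRNA, has 3 subunits, and all 3 genes were above the median probe in both groups. SUI3, for the beta subunit, stood at 1.14 and 1.10 with Rpb3 and at 1.08 and 1.16 with Rpb4. GCD11, for the gamma subunit that binds GTP, stood at 0.79 and 0.56 with Rpb3 and at 0.76 and 0.78 with Rpb4. SUI2, for the alpha subunit, had means of 0.99 and 0.81.

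Within eIF2B, GCD1 (gamma) and GCD7 (beta) were above the median probe in both groups, and GCD2 (delta) and GCD6 (epsilon, the catalytic subunit) in neither. GCD1 stood at 0.55 and 0.39 with Rpb3 and at 0.50 and 0.48 with Rpb4. GCD7 stood at 0.19 and 0.18 with Rpb3 and at 0.21 and 0.19 with Rpb4. GCD2 stood at 0.04 and -0.13 with Rpb3 and at 0.08 and 0.13 with Rpb4. GCD6 stood at 0.08 and -0.37 with Rpb3 and at 0.07 and 0.07 with Rpb4, so the second Rpb3 array alone was low.

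The release factors were close to each other. SUP45, for the stop codon reader eRF1, stood at 0.89 and 1.01 with Rpb3 and at 0.65 and 0.61 with Rpb4. SUP35, for its GTPase partner eRF3, stood at 0.67 and 0.85 with Rpb3 and at 0.79 and 0.80 with Rpb4. The SUP45 arrays did not overlap and those of SUP35 did, and the SUP45 difference of -0.32 ± 0.07 (SE) did not pass (limma adjusted p = 0.106).

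Over whole genes, the difference between the subunits passed the test at no translation factor gene. Of the 33, 0 passed in limma in either direction, where 0.929% of all genes were higher and 2.51% lower with Rpb4. At an unadjusted p under 0.05 there were 5, namely HYP2, ANB1, TEF4, SUP45 and SUI1, all lower with Rpb4 on this scale, and 1198 of 5490 genes had such a p in either direction. TEF4 had the difference -0.33 ± 0.08 (SE; limma adjusted p = 0.138). With arrays scaled to one spread the TEF4 difference was -0.06 and that of SUI1 -0.06. Under quantile normalization they were 0.03 and 0.01, and that of SUP45 was -0.16. The median difference over the members was 0.01, and 15 of 33 were negative, against 0.01 and 46.4% over all genes. It was 0.12 with 10 negative after scaling, against 0.02 and 44.6%. After quantile normalization it was 0.15 with 5 negative, against 0.04 and 41.5%.

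Intervals were wide enough that moderate differences could not be seen. The 95% interval of the difference reached 0.15 to either side for PAB1, 0.34 for YEF3 and 0.45 for GCD6. Without the second Rpb3 array 4 members passed, EFT1 higher and HYP2, TEF4 and SUP45 lower, which is 12.1% of members where 26.3% of all genes passed. Without the first Rpb3 array 17 passed, 6 higher and 11 lower, or 51.5% where 62.6% of all genes did. Without either Rpb4 array 0 members did.

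**Figure D3:**
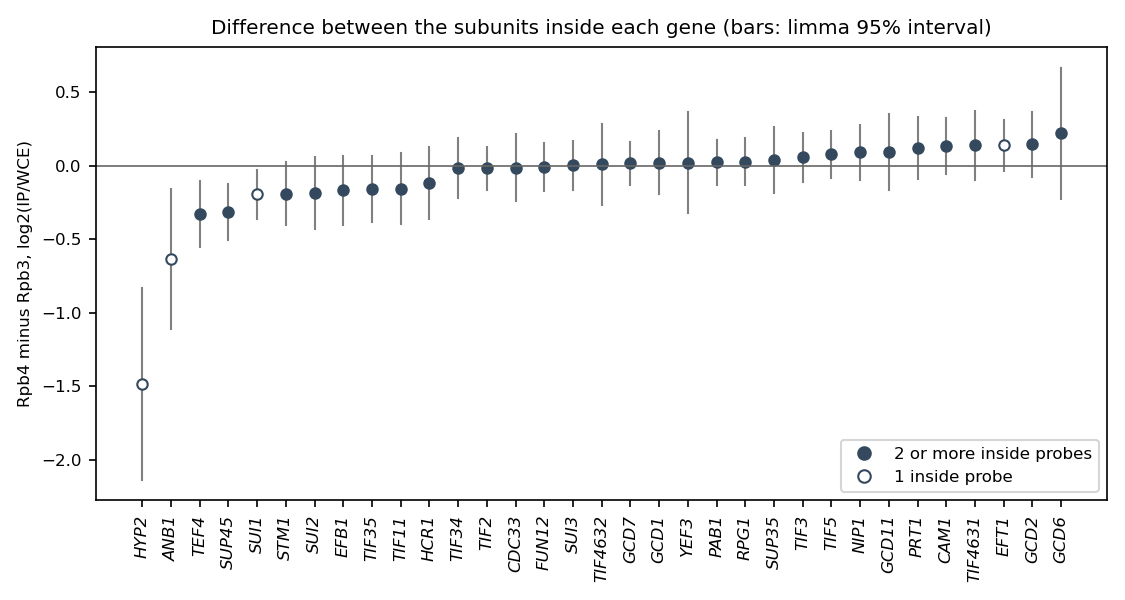
Difference in log2(IP/WCE), Rpb4 minus Rpb3, for each of 33 translation factor genes in order, with limma's 95% interval from 4 arrays as bars. Genes measured by 1 inside probe are open circles, and HYP2 at -1.48 and ANB1 at -0.64 lie lowest.

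The difference was described against gene span. Across the 33 members the Spearman correlation between the distance from the first to the last inside probe and the Rpb4 minus Rpb3 difference was 0.47, and 0.36 to 0.55 over the 4 pairings of single arrays. Over all 5490 genes it was 0.28. The points share arrays and, in short genes, probes close to the start. The levels themselves had correlations of -0.21 with Rpb3 and -0.04 with Rpb4 over the members.

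The subunits parted by position. Upstream of the start, from 250 bp before it to the start itself, the Rpb4 level was below the Rpb3 level at 29 of 29 members with a probe there. Their median was 1.09 with Rpb3 and 0.59 with Rpb4, and the median difference was -0.56, from -0.66 to -0.41 over the pairings of arrays. The difference was negative at 77.4% of 4503 genes, with a median of -0.20. Without the second Rpb3 array it was negative at 28 of 29 members, with a median of -0.44, and ANB1 was the exception. The share of all genes in that setting was 86.7%, with a median of -0.21. Under the 4 other scalings tried the members' difference was negative at 27 to 29 of the 29, with medians of -0.61 to -0.30. Of all genes, 67.5% to 79.2% were negative under these scalings.

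The largest such differences were at HYP2 (-1.88), TEF1 (-0.87), TIF4631 (-0.86), FUN12 (-0.84) and STM1 (-0.82). The smallest were at ANB1 (-0.03), NIP1 (-0.13) and TIF4632 (-0.15). Of these genes, HYP2, FUN12, STM1 and ANB1 were read in promoters shared with UTR5, FUN11, YLR149C and CYC1, respectively. At STM1 the 4 arrays read 1.21, 1.49, 0.52 and 0.53, and at HCR1 they read 0.75, 1.01, 0.08 and 0.18. In both genes the 2 Rpb4 arrays lay together below both Rpb3 arrays. At TIF4631 the arrays read 0.34 and 1.28 with Rpb3 and -0.10 and 0.02 with Rpb4, so much of its difference came from the second Rpb3 array.

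Other genes of protein synthesis were alike in sign in that window. The difference was negative at 18 of 18 aminoacyl-tRNA synthetase genes, with a median of -0.60, and at 24 of 24 other translation genes, with a median of -0.26. It was negative at 116 of 119 ribosomal protein genes, with a median of -0.69. After quantile normalization the counts were 17, 23 and 109, where 76.9% of all genes were negative. With normexp background correction they were 18, 19 and 115, where 67.5% were. Without the first Rpb3 array they were 18, 18 and 115, where 3040 of 4503 genes were negative. No test was made between these lists.

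Further into the gene the members' difference was nearer 0 or positive. In the first 300 bp the members' median difference was -0.20 and 21 of 25 were negative, against -0.06 and 59.9% over all genes. From 300 to 600 bp it was -0.06, with 15 of 26 negative, against 0.005 and 49.4% over all genes. From 600 to 1000 bp it was -0.02, with 14 of 25 negative, against 0.035 and 43.9%. Without the first Rpb3 array the members' median in the first 300 bp was -0.31. Without the second that from 600 to 1000 bp was 0.01, with 11 of 25 negative. The sign from 300 to 1000 bp depends on the scaling, with medians of 0.13 and 0.19 in these windows after quantile normalization and 0.08 and 0.13 with arrays scaled to one spread. From 1000 to 1500 bp it was 0.08 over 19 members, and beyond 1500 bp it was 0.19 over 11, and these were 0.26 and 0.37 after quantile normalization. The last 2 windows hold few members, and the same windows of all genes read 0.09 and 0.09. Past the gene ends the members had 10 downstream probes, of which ANB1 and GCD11 gave 2 each. The difference was negative at 8 of the 10 probes, with a median of -0.21. Of these, 0 passed the test over all probes, and the share among all downstream probes is not given here. Each window holds a different set of genes, and no test was made between windows.

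**Figure D4:**
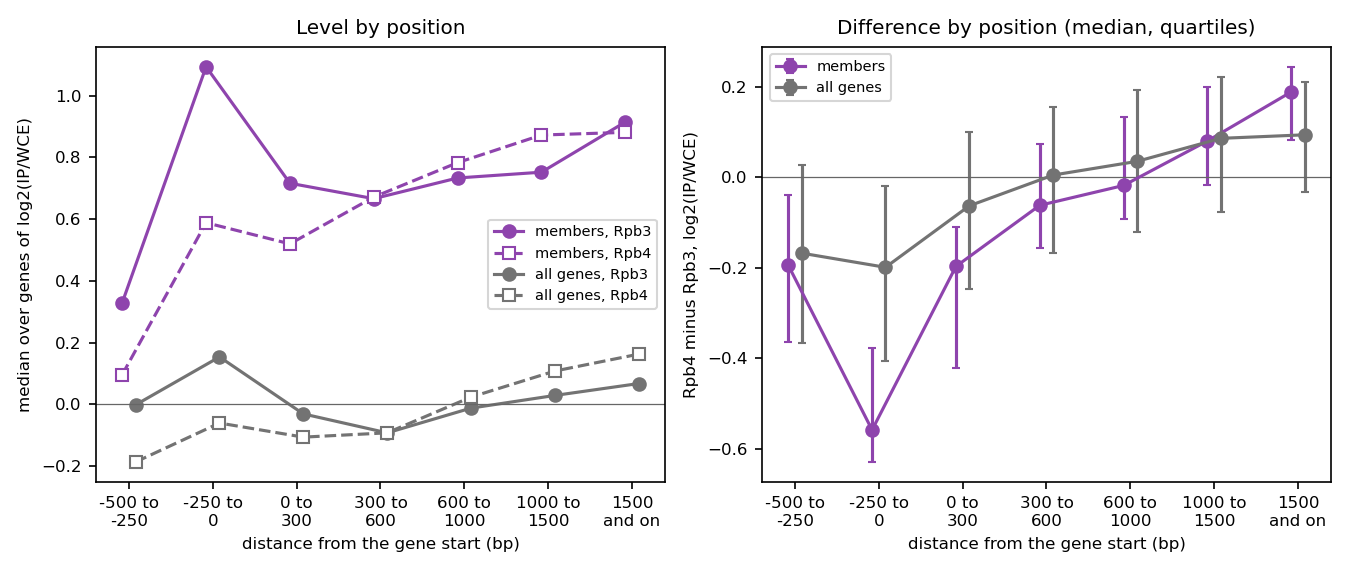
Left, the median over genes of log2(IP/WCE) by distance in bp from the gene start, for Rpb3 (filled) and Rpb4 (open). Right, the median difference, Rpb4 minus Rpb3, with quartiles over genes as bars, for translation factor genes and all genes. The members' difference is lowest, at -0.56, from 250 bp before the start to the start, and above 0 from 1000 bp on.

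The same contrast was tested per gene as the inside level minus the promoter level. With Rpb3, 10 of 31 members with both kinds of probe were higher inside and 7 higher in the promoter (limma, adjusted p under 0.05), where 23.7% and 29.4% of 5037 genes were. With normexp background correction the Rpb3 counts were 15 and 4, the members' median went from -0.02 to 0.41, and 1454 genes were higher inside against 1270 in the promoter. With Rpb4, 15 were higher inside and 2 higher in the promoter, where 33.8% and 17.1% of all genes were. The difference between the subunits was positive at 28 of 31 members, with a median of 0.33, and at 3810 of 5037 genes, with a median of 0.19. It passed the test at 0 members and at 0% of genes in either direction, while 12 members and 1364 genes had an unadjusted p under 0.05. Without the second Rpb3 array 21 members passed, 20 of them positive (67.7%, where 54.4% of all genes passed), and without the first 24 did (77.4%, where 68.8% did).

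FUN12, for the GTPase eIF5B that joins the subunits, had the largest of these differences. Its inside minus promoter value was -0.01 and -0.38 with Rpb3 and 0.57 and 0.69 with Rpb4, a difference of 0.83 ± 0.16 (SE; limma adjusted p = 0.117). The promoter probe lies 176 bp before FUN12 and 98 bp before the divergent gene FUN11. It read 0.67 and 1.07 with Rpb3 and 0.06 and 0.01 with Rpb4, so the Rpb4 arrays were near the median probe there. The part of FUN11 in this reading was not tested.

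YEF3 was higher inside with both subunits, by 1.10 and 1.14 on the Rpb3 arrays and by 1.58 and 1.77 on the Rpb4 arrays. TEF4 (1.46 and 1.67 on average) and TIF34 (1.49 and 1.51) were also higher inside in both groups. Their promoter values come from distant probes, the nearest 322 bp before TEF4 and 406 bp before TIF34. The other promoter probe of each lay 24 bp before RRP14 and 70 bp before YMR147W, respectively. At the other end, GCD2 and TIF4632 were lower inside than in their promoters in both groups, with values of -0.91 and -0.31 for GCD2 and of -0.80 and -0.69 for TIF4632. The files also place the GCD2 promoter probe 1256 bp from the start of YGR084C, and the nearer TIF4632 promoter probe 1585 bp from the start of YGL048C.

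Within the gene body, the mean of the probes on the 3' side of the midpoint minus that on the 5' side was tested for 22 members. With Rpb3, GCD1 (0.67) and TIF34 (0.74) were higher on the 3' side and TIF35 (-0.29) on the 5' side (limma, adjusted p under 0.05). That is 2 and 1 of 22, where 29.6% and 3.73% of 3484 genes were. With Rpb4, 8 of 22 were higher on the 3' side and 0 on the 5' side, where 40.7% and 2.58% of all genes were. The 8 were GCD1, TEF4, SUP45, PAB1, RPG1, FUN12, TIF4632 and STM1, with differences of 0.33 to 0.60.

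The difference between the subunits in this measure passed at 0 members, and at 0% of genes in either direction (limma). At an unadjusted p under 0.05 there were 5 members of 22 and 314 genes of 3484. Without the second Rpb3 array 8 members passed, all positive (36.4%, where 20.3% of all genes passed). Without the first 20 did (90.9%, where 64.6% did), and without either Rpb4 array the count of 8 members higher on the 3' side with Rpb4 became 0.

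RPG1, with 11 inside probes, is given as an example. Its 3' minus 5' value was 0.28 and -0.01 with Rpb3 and 0.45 and 0.53 with Rpb4. The difference between the subunits did not pass (limma adjusted p = 0.526). The probe 94 bp from the RPG1 start read 0.83 and 1.83 with Rpb3 and 0.63 and 0.63 with Rpb4. The probe at 2708 bp read 1.59, 1.42, 1.65 and 1.95. The next probe, beyond the gene end, read 2.43, 2.71, 2.17 and 2.09, and the files also place it 2125 bp from the start of YBR078W. Chromatin had been sheared to about 400 to 500 bp, and the part of YBR078W in the last RPG1 probes was not tested. In YEF3 the 3' minus 5' difference was 0.11 and -0.07 with Rpb3 and 0.23 and 0.18 with Rpb4, and did not pass with either.

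Other genes of protein synthesis give the range in which these levels lie. Of 127 ribosomal protein genes, all were above the median probe with both subunits, with medians of 1.79 and 1.49, and RPS14B and RPL28 were highest and RPS30A and RPL17B lowest. Of 20 aminoacyl-tRNA synthetase genes, 20 were above with Rpb3 and 19 with Rpb4, with medians of 0.54 and 0.43, from KRS1 and ILS1 down to GLN4 and YDR341C. Of 28 other translation genes, 16 were above and 5 below with Rpb3, and 17 above and 6 below with Rpb4, with medians of 0.21 and 0.25.

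In the last list ASC1, a ribosome scaffold protein gene, and TMA19 were highest, and DBP1 and HEF3 lowest. HEF3 is a paralogue of YEF3 and read -0.63 and -0.69 with Rpb3 and -0.61 and -0.58 with Rpb4, where the lowest YEF3 value of the 4 arrays was 2.40. The difference between the subunits was negative at 126 of the 127 ribosomal protein genes, with a median of -0.32, and at 16 of 20 synthetase genes, with a median of -0.22. Among the translation factors it was negative at 15 of 33, and over all genes at 46.4%. After quantile normalization it was negative at 46 of 127 ribosomal protein genes (median 0.04) and 14 of 20 synthetase genes (median -0.14). Under the same normalization it was negative at 5 of 33 translation factor genes and at 41.5% of all genes. The direction for the ribosomal protein genes therefore depends on the scaling. The limma test passed for 2 ribosomal protein genes (RPL40B and RPL7B), 1 synthetase gene (KRS1) and 1 other translation gene (DED1, for an initiation helicase), all lower with Rpb4.

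DED1 stood at 1.41 and 1.59 with Rpb3 and at 0.49 and 0.55 with Rpb4, a difference of -0.98 ± 0.08 (SE; limma adjusted p = 0.019). No member of the translation factor list had a difference that passed.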

How the data were processed

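The labels group the 4 ChIP-chip arrays by the tagged subunit, with 2 for each. IP DNA carried Cy5 and WCE DNA Cy3 throughout, and a dye effect would therefore remain in every ratio. The submitters' processing notes name Agilent Feature Extraction 9.1 for reading the spots, and probes were 60 nucleotides long and about 290 bp apart, per the labels. The deposited files give normalized IP and WCE intensities, which the authors made from the foreground minus background intensities, per the file headers and the values. The software for that step is not given in the sources used here.

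From these, log2(IP/WCE) was computed for 41775 probes and centred on each array's median, with no loess or quantile step. Probes with a non-positive signal were left out, as were 3444 control spots. Gene levels are means over the probes that the files annotate as inside a gene. Levels, 3' minus 5' differences and inside minus promoter differences were each modelled on all genes and all 4 arrays by lmFit and eBayes (limma 3.58.1, R 4.3.3), tested two-sided and adjusted by Benjamini-Hochberg at 0.05. The 3' minus 5' measure needed 2 probes on each side. A fit over all single probes, the windows by distance and their values under other scalings were added after values were seen. Tables and figures were prepared using matplotlib 3.10.9, pandas 2.3.3 and numpy 2.4.6 under Python 3.11.15. The fit was tested on simulated data.

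All 37 members matched the R64 gene table, used for names and for the length of EFT1. The members, the roles, and the lists of other translation, synthetase and ribosomal protein genes were chosen with earlier results of these data known. Values on all arrays are printed for the 5 highest and 5 lowest members, the paralogue pairs, and the highest and lowest member of each role, and other genes shown were chosen after their values were seen. Alternatives covered centring, scaling, quantile normalization, normexp, probe summaries, the variance model, a replicate block and leaving out each array.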

Additional observations from a re-analysis of the deposited data

How the results depend on the processing

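The count of members above the median probe was 25 to 30 for Rpb3 and 25 to 31 for Rpb4 under every alternative that could be run, leave-one-out included. Below it with Rpb3 were 2 members without the first Rpb3 array (GCD2 and GCD6) and 1 without the second (TIF4632). The count of members that differed between the subunits was 0 as reported, 3 under quantile normalization (YEF3 and EFT1 higher, HYP2 lower), 1 under normexp (HYP2) and 2 with a replicate block (HYP2 and ANB1), and 0 to 17 when 1 array was left out. For the 3' minus 5' difference the count of 3 for Rpb3 became 6 with arrays scaled to one spread and 2 to 18 with 1 array left out. The count of 8 for Rpb4 became 14 with scaling, 14 under quantile normalization and 0 to 21 with 1 array left out, and the count of 0 for the difference between subunits became 0 to 20. For the inside minus promoter difference, leaving out 1 array gave 13 to 26 members for Rpb3, 6 to 29 for Rpb4 and 0 to 24 for the difference between subunits, which was 3 under quantile normalization (FUN12, HCR1 and YEF3). Taking only promoter probes within 500 bp of the start, an alternative chosen after seeing the data, gave 17, 20 and 0. The probe test, also added then, called 1 probe as reported, 5 with scaling, 7 under quantile normalization, 5 under normexp, 2 with trend and robust, 23 with the replicate block and 3 to 188 with 1 array left out. The cause of the changes with scaling, quantile normalization and normexp was not tested. With 1 array left out, its partner is assumed to vary like the other pair, and the Rpb4 pair was the closer one. The labels give no replicate numbers, so the replicate block sets the arrays titled as replicates against the others and is no pairing by design. It moved no count other than those named by over 1.5 times, except that the 3' minus 5' count for Rpb4 became 12. Keeping the excluded probes gave no value, since each had a non-positive signal, and a minimum of 2 inside probes was already part of the 3' minus 5' measure. Signal was far above background in both channels, and 2 arrays per group limit what can be seen.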
